A study of Homo sapiens with 4 samples.

Results

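The enzymes that place, copy and remove methyl groups on cytosine were examined in NB4 leukemia cells with raised JMJD3. They are the DNA methyltransferases DNMT1, DNMT3A and DNMT3B, the methylation cofactor UHRF1, the dioxygenases TET1, TET2 and TET3, the glycosylase TDG, and the isocitrate dehydrogenases IDH1 and IDH2. The genes were taken by symbol, and each symbol occurred once, so that they made up 10 of the 60662 genes in the authors' table. The study sequenced RNA of NB4 cells, a line derived from acute promyelocytic leukemia, after transduction with an empty control vector (2 libraries) or with a vector for JMJD3 (2 libraries). All 4 libraries thus came from a single cell line that had been transduced. The labels put vector library 1 on sequencing lane 20 and the other 3 libraries on lane 17. The authors' table gives estimated counts and FPKM. Counts are given here as CPM, that is, scaled to library size with TMM, and FPKM, which is per transcript length, is used wherever genes are compared with each other.

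DNA methylation is copied after replication by DNMT1, which UHRF1 brings to CpG sites that carry a methyl group on the parental strand alone, while DNMT3A and DNMT3B methylate new sites. TET enzymes oxidize the methyl group in a reaction that consumes 2-oxoglutarate, and TDG cuts out the later oxidation products so that base excision repair can restore cytosine. IDH1 in the cytosol and IDH2 in mitochondria make 2-oxoglutarate, and DNMT3A, TET2, IDH1 and IDH2 are among the genes that are often mutated in acute myeloid leukemia.

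The upstream sequences of 4 members are shown because they lie next to genes whose levels are contrasted below: DNMT1 with its partner UHRF1, and TDG with TET2. They are from RefSeq on build GRCh38.p14, read 5′ to 3′ on the strand of the gene: DNMT1 at chr19:10194948-10195097 (minus strand), UHRF1 at chr19:4909351-4909500 (plus strand), TDG at chr12:103965722-103965871 (plus strand) and TET2 at chr4:105145725-105145874 (plus strand). Capitals mark a match to GCGCGAAA or GCGGGAAA, the reverse complements of the E2F words TTTCGCGC and TTTCCCGC, in DNMT1 and UHRF1, and to the E-box CACGTG in TDG and TET2.

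DNMT1: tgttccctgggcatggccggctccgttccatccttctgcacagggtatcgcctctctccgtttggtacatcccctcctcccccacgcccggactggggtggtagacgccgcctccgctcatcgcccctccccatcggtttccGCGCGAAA

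UHRF1: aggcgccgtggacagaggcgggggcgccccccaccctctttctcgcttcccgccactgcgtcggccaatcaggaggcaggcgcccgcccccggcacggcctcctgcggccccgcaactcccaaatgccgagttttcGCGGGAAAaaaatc

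TDG: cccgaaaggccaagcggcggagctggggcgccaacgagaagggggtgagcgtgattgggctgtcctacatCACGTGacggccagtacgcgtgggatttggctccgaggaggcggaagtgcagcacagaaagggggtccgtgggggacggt

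TET2: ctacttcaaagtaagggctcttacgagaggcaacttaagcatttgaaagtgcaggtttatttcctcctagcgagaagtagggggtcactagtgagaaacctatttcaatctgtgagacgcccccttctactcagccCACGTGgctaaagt

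The word in DNMT1 began 2 bases before the annotated start and ran past it, that in UHRF1 began 14 bases before a start that lies 6421 bases inside the gene, and the E-boxes of TDG and TET2 began 80 and 14 bases before their starts. The motifs were chosen after the sequences had been seen, and windows from 250 bases before to 50 bases after annotated starts were searched on both strands. All 10 members were matched to at least 1 such window. An E2F word (TTTGGCGC, TTTCCCGC, TTTCGCGC or TTTGCCGC) stood in 3.31% of all 35116 windows and in 3 of the 22 windows of the members. It stood at 3.99% of 27305 genes, at 2 of 10 members and at 12 of 18 matched genes of DNA replication. The E-box stood in 7.26% of windows and in 5 of the 22. It stood at 8.77% of genes and at 4 of 10 members, DNMT3A, TET2, TET3 and TDG. In DNMT3A it lay at starts 90275 and 90327 bases inside the gene, and the second window of TET2 held none. Another motif searched, TTGCNNAA with N for any base, stood at 12.7% of genes, at 2 of 10 members and at 0 of the 18 genes of replication. A share by gene grows with the number of windows, and members had more windows per gene than genes at large. The 22 windows of the members held a median of 24 CpG sites, against 14 over all windows, and within the stretches printed here DNMT1 had 14, UHRF1 17, TDG 14 and TET2 4. A match describes the sequence and does not show that a protein binds there or that it bears on the levels given below.

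KDM6B, the gene for JMJD3, stood at 15.8 and 13.7 CPM in the vector libraries and at 37.8 and 44.2 CPM in the JMJD3 libraries, so that it was higher in both JMJD3 libraries by 2.78-fold. Of 11 promyelocyte markers, 10 reached 1 CPM in some library, and they summed to 17300, 18200, 11100 and 11000 CPM in vector libraries 1 and 2 and JMJD3 libraries 1 and 2. MPO carried most of these sums (13900, 14100, 9380 and 9420 CPM), and of 10 tested promyelocyte markers 7 were called lower and 2 higher. Markers of other cells were low. The 7 T cell genes summed to 13.1, 14.8, 50.4 and 46.6 CPM in the same order, mostly TRAC (9.34, 9.54, 39.4 and 35.5 CPM), with CD5 at 0. The 5 B cell genes summed to 25.9, 30.8, 36.6 and 32.8 CPM, led by CD79B, with MS4A1 at 0. The 7 fibroblast and epithelial genes summed to 6.72, 7.68, 3.51 and 2.86 CPM, led by EPCAM, with COL1A2, COL3A1 and CDH1 at 0. All 5 erythroid genes were at 0, which allows up to 3 reads, or 0.0671 to 0.0925 CPM by library, counting error only. Of the tested markers of other cells, 2 of 2 T cell genes and 1 of 3 B cell genes were called higher, and 1 of 2 fibroblast and epithelial genes, EPCAM, lower (4.53, 5.29, 1.21 and 1.16 CPM). Markers of several cell types thus moved with the groups, and their part in the results below was not tested.

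The vector libraries stood apart from each other. The ratio of vector library 1 to vector library 2 followed transcript length, here read from the counts per FPKM of each gene: its median log2 was -0.18 in the shortest decile of genes and 0.30 in the longest (Spearman correlation 0.41 over 15246 genes). Between the JMJD3 libraries the trend was weaker and ran the other way, with medians from 0.11 to -0.10. The comparison of the groups carried it too, from a median log2 fold change of -0.10 in the shortest decile to 0.19 in the longest, and the share of genes called higher was 11.2% in the former and 27.7% in the latter. TET1, TET2 and TET3 lay at length percentiles 99.2, 99.1 and 99.7, where this difference between the vector libraries was largest. Set against the mean of the JMJD3 libraries, vector library 1 was nearly level across length, with medians for JMJD3 over vector of -0.03 in the shortest decile and 0.05 in the longest, while vector library 2, which shares lane 17 with the JMJD3 libraries, ran from -0.18 to 0.37. The cause of the trend was not tested. A fit with a length trend for each library, chosen after the data had been seen, is therefore given beside the members.

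**Figure D1:**
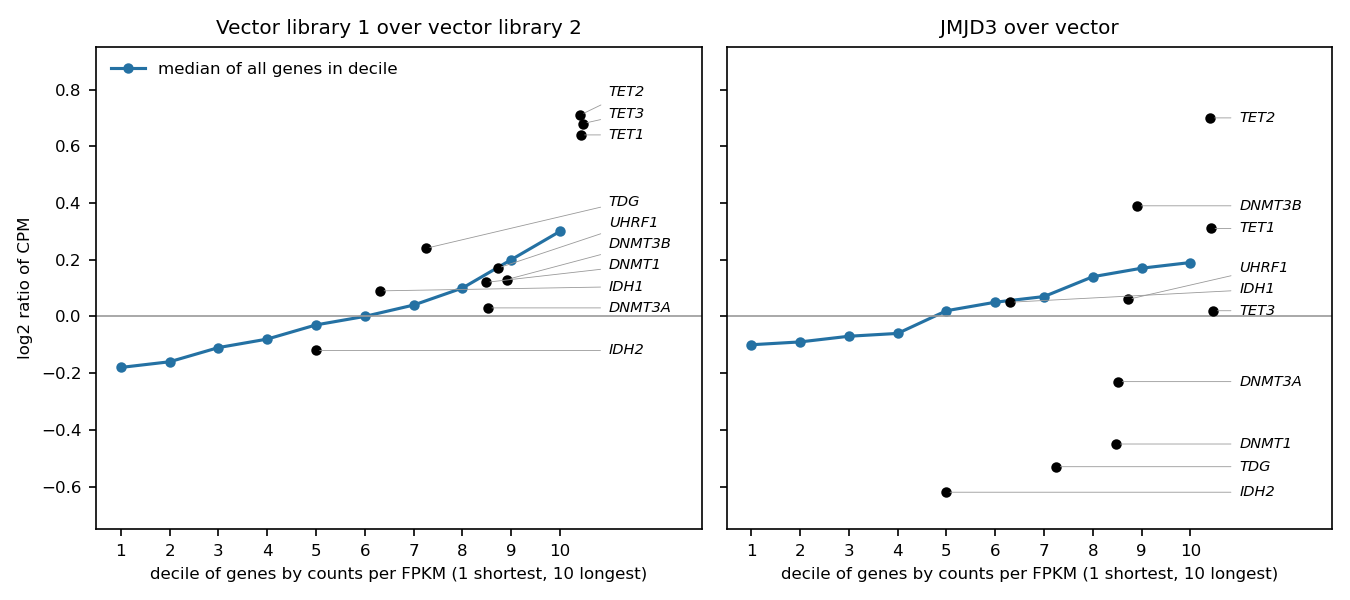
Median log2 ratio of CPM (vertical axis) in deciles of all tested genes by counts per FPKM (horizontal axis), for vector library 1 over vector library 2 (left) and JMJD3 over vector (right), with each member as a black point. TET1, TET2 and TET3 lie far above the line on the left, whereas TDG, IDH2 and DNMT1 lie far below it on the right.

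In this picture the line is the trend over all genes, and the distance of a point from it is how far that gene departs from genes of its own length. TET1, TET2 and TET3 had log2 ratios of 0.64, 0.71 and 0.68 between the vector libraries, against a median of 0.30 for their decile. DNMT1, at 0.12, was near the 0.10 of its own.

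Expression of the members in JMJD3 cells moved in both directions. DNMT1, TDG and IDH2 fell, to 0.733, 0.692 and 0.649 of their level in vector cells, whereas TET2 rose 1.63-fold and DNMT3B 1.31-fold. DNMT3A, UHRF1, TET1, TET3 and IDH1 did not pass the test. Thus 2 of 10 members were called higher, against 21.6% of all tested genes, and 3 were called lower, against 19.1%, at an adjusted p under 0.05 by edgeR's quasi-likelihood test with Benjamini-Hochberg adjustment over 15246 genes. These shares are near those of all genes. None was called at a change of 2-fold or more (0 of 10, against 10.4% of tested genes), nor at an unadjusted p under 0.05 with that change, the largest log2 fold change being 0.70 for TET2. The groups did not overlap for 6 of 10 members (against 74.3% of tested genes), with 2 higher and 4 lower (against 35% lower over all tested genes), and the median log2 fold change of the members was 0.04, equal to that of all tested genes. It was -0.14 without vector library 2 and 0.08 without vector library 1. With the length trend in the fit their median was -0.13, and 2 were called higher and 4 lower, against 3651 and 3797 of all 15246 tested genes. Nothing states that libraries were made from separate cultures or transductions, so the p-values measure only the spread between these libraries. Lane and library cannot be told apart in vector cells either. Where a library was left out, the group with 1 library had no spread of its own and that of the other pair was used, so a call gained or lost in such a fit can come from the spread alone, and the fold change is the value to read.

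**Figure D2:**
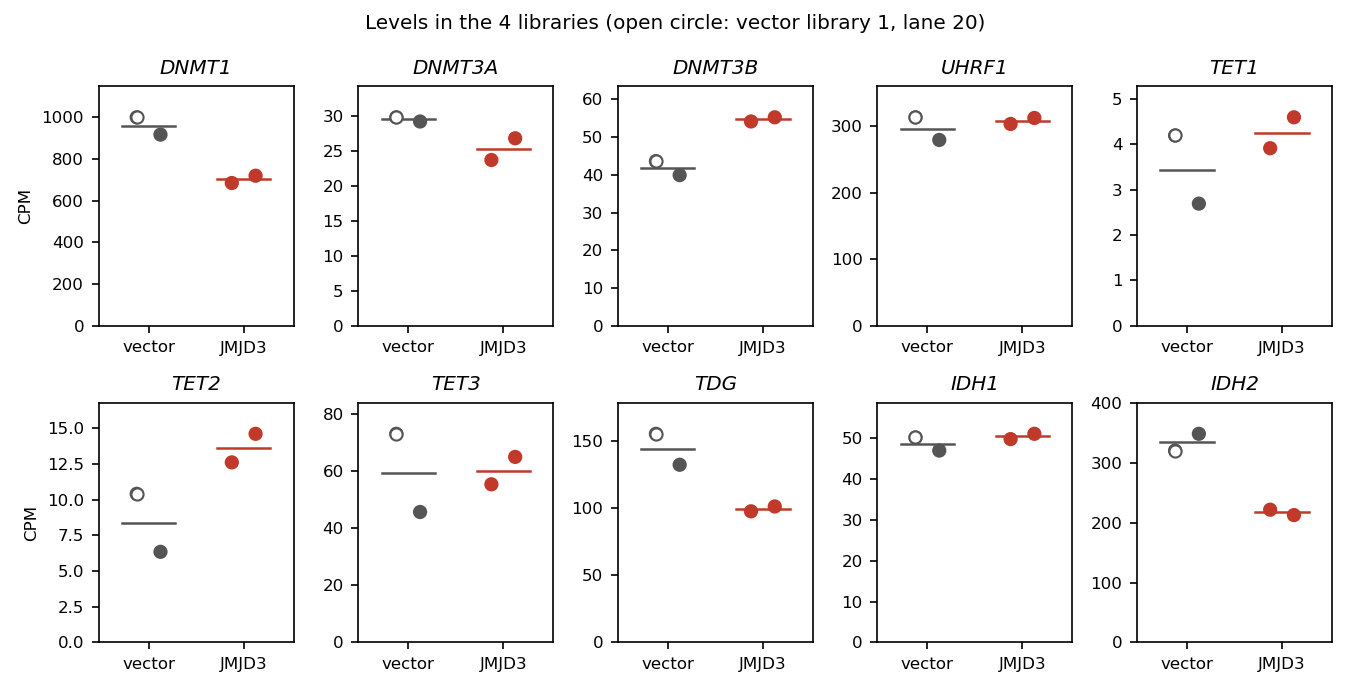
CPM of each member (1 panel per gene, each with its own vertical axis from 0) in the 4 libraries, with lines at the group means and vector library 1 as an open circle. DNMT1, TDG and IDH2 are lower and DNMT3B and TET2 higher in both JMJD3 libraries, and the vector libraries lie far apart for TET1, TET2 and TET3.

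The panels show single libraries, and therefore also which comparison rests on a wide pair. The vector pair was tight for DNMT3A and IDH1 and wide for the TET genes, of which TET3 had both its highest and its lowest value in vector cells.

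The maintenance methyltransferase DNMT1 was at 1000 and 917 CPM in vector libraries 1 and 2 and at 685 and 720 CPM in JMJD3 libraries 1 and 2. Both JMJD3 libraries were below both vector libraries, with means of 959 ± 58.6 and 703 ± 24.7 CPM (SD, n = 2). Its log2 fold change was -0.45 (standard error 0.08, adjusted p = 0.00609 by edgeR's quasi-likelihood test with Benjamini-Hochberg adjustment), and -0.59 with the length trend in the fit, against a median of 0.14 for genes of its length. In bulk RNA, fewer cells in S phase and less DNMT1 RNA per cell cannot be told apart. UHRF1, which recognizes hemimethylated sites and recruits DNMT1, was at 313, 279, 303 and 312 CPM in the same order of libraries. Its groups overlapped, with both JMJD3 values between the vector values, and its log2 fold change was 0.06 (standard error 0.08, adjusted p = 0.620 by edgeR's quasi-likelihood test with Benjamini-Hochberg adjustment). It was -0.03 without vector library 2 and -0.10 with the length trend. Per transcript length, DNMT1 thus stood at 3.65 and 3.89 times the FPKM of UHRF1 in vector cells and at 2.18 and 2.29 times in JMJD3 cells. The levels of DNMT1 and UHRF1 did not move alike.

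On the FPKM scale DNMT1 showed a larger difference than on counts. It was at 326 and 308 FPKM in vector cells and at 190 and 206 FPKM in JMJD3 cells, a log2 ratio of the means of -0.68. The scales differ by the length that the authors' tool assigned to its reads: the counts per FPKM of DNMT1 were 114 in both vector libraries and 134 and 129 in the JMJD3 libraries, a log2 shift of 0.21. A shift at least as large was found in 16.3% of genes. What lies behind the shift was not tested, since the table holds no transcripts.

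The de novo enzymes differed from each other. DNMT3B was at 43.6 and 39.9 CPM in vector libraries and at 54.1 and 55.2 CPM in JMJD3 libraries, so that it was higher in both, and its log2 fold change was 0.39 (standard error 0.10, adjusted p = 0.0204 by edgeR's quasi-likelihood test with Benjamini-Hochberg adjustment). With the spread of the vector pair alone the call was lost while the fold change hardly moved, without JMJD3 library 1 (log2 fold change 0.40, edgeR adjusted p = 0.194) and without JMJD3 library 2 (0.38, edgeR adjusted p = 0.25). It was also lost with limma on log2(FPKM + 1) (0.30, adjusted p = 0.0996) and with a block for the replicate number (0.39, edgeR adjusted p = 0.0534). With the length trend the log2 fold change of DNMT3B was 0.23, over 1.5 times smaller, against a median of 0.17 for its decile without that trend. DNMT3A, the main de novo enzyme of blood stem cells, was at 29.8 and 29.2 CPM in vector cells and at 23.7 and 26.8 CPM in JMJD3 cells. Its groups did not overlap, but the log2 fold change of -0.23 (standard error 0.11) did not pass (adjusted p = 0.132 by edgeR's quasi-likelihood test with Benjamini-Hochberg adjustment). With the length trend it was -0.37 and passed (edgeR adjusted p = 0.0132), the only call in 15 alternatives. It was -0.14 without JMJD3 library 1 and -0.31 without JMJD3 library 2.

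Within the methyltransferase family the balance of RNA therefore shifted away from DNMT1. DNMT1 made up 93.7 and 93.9% of the summed FPKM of the 3 enzymes in vector libraries and 89.7 and 89.8% in JMJD3 libraries. DNMT3B held 3.69 and 3.41% in the former and 6.96 and 6.59% in the latter, and DNMT3A 2.61, 2.68, 3.35 and 3.59%. The sum itself was 348 and 328 FPKM against 212 and 230 FPKM, and most of that difference was DNMT1, so the rising share of DNMT3A does not reflect a higher level. In FPKM, DNMT3B stood at 1.41 and 1.27 times DNMT3A in vector cells and at 2.08 and 1.84 times in JMJD3 cells. Shares of a sum depend on each other and were not tested.

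**Figure D3:**
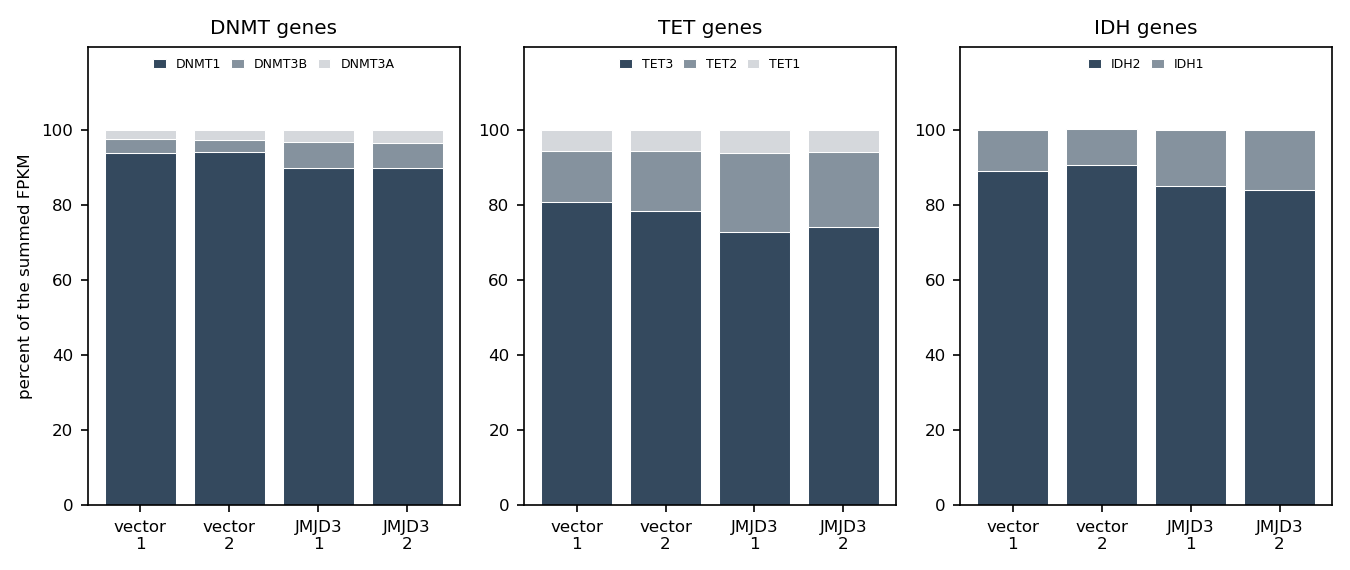
Share of the summed FPKM of each enzyme family (vertical axis, percent) held by each gene in the 4 libraries (bars), for methyltransferases, TET enzymes and isocitrate dehydrogenases. DNMT3A, DNMT3B, TET1, TET2 and IDH1 hold a larger share in both JMJD3 libraries than in either vector library.

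In these bars a share can grow because a gene rose or because its relatives fell. For IDH1 it was the latter, since its own FPKM was 24.6, 23.3, 23.7 and 24.8 in the 4 libraries. TET2 grew in its family while the sum of the TET enzymes, 8.13, 5.34, 6.84 and 8.25 FPKM, overlapped between the groups.

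TET2, the dioxygenase most often lost in myeloid neoplasms, was at 10.4 and 6.34 CPM in vector libraries 1 and 2 and at 12.6 and 14.6 CPM in JMJD3 libraries 1 and 2. The groups did not overlap, and the means were 8.36 ± 2.87 and 13.6 ± 1.37 CPM (SD, n = 2). The log2 fold change was 0.70 (standard error 0.23, adjusted p = 0.0450 by edgeR's quasi-likelihood test with Benjamini-Hochberg adjustment), against a median of 0.19 for genes of its length, and 0.51 with the length trend. The size of the rise depended on which vector library was used: it was 1.06 without vector library 1 (edgeR adjusted p = 0.00355) and 0.38 without vector library 2, where the call was lost (edgeR adjusted p = 0.0529), both with the spread of the JMJD3 pair alone. Without JMJD3 library 2 it was 0.60 and the call was lost as well (edgeR adjusted p = 0.0570), with the spread of the vector pair alone. It did not pass with limma on log2(FPKM + 1), at 0.36 (adjusted p = 0.0715). The call was also lost, while the fold change hardly moved, with no filter on low counts (0.70, edgeR adjusted p = 0.164). The same held after thinning the deposited counts to equal totals (0.69, edgeR adjusted p = 0.0509), which does not equalize the reads behind them. Over 15 alternatives TET2 was higher in all and called in 9.

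TET3 and TET1 did not pass. TET3, which was the most abundant of the family with 80.8, 78.4, 72.8 and 74.0% of its FPKM, was at 73.1, 45.7, 55.4 and 65.0 CPM. Its groups overlapped, with both JMJD3 libraries inside the range of the vector pair, and its difference of 0.02 on the log2 scale (standard error 0.21, adjusted p = 0.949 by edgeR's quasi-likelihood test with Benjamini-Hochberg adjustment) turned to -0.28 without vector library 2, to -0.10 without JMJD3 library 2 and to -0.17 with the length trend. TET1, which acts in embryonic cells and in the germ line, was low at 4.19, 2.69, 3.91 and 4.59 CPM, or 136, 98, 146 and 205 reads. Its groups overlapped and its log2 fold change was 0.31 (standard error 0.23, adjusted p = 0.316 by edgeR's quasi-likelihood test with Benjamini-Hochberg adjustment). With the length trend it was 0.1. Without vector library 1 it was 0.61 and passed with the spread of the JMJD3 pair alone (edgeR adjusted p = 0.0375), and without vector library 2 it was 0.02. In FPKM, TET2 stood at 0.167 and 0.203 of TET3 in vector cells and at 0.287 and 0.269 in JMJD3 cells, and this ratio of genes of like length did not overlap between the groups.

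TDG, the glycosylase that removes the products of TET oxidation, was at 155 and 132 CPM in vector cells and at 97.4 and 101 CPM in JMJD3 cells. It was lower in both JMJD3 libraries, with means of 144 ± 16.5 and 99.4 ± 2.78 CPM (SD, n = 2). The log2 fold change was -0.53 (standard error 0.10, adjusted p = 0.00828 by edgeR's quasi-likelihood test with Benjamini-Hochberg adjustment), and -0.62 with the length trend. The call was lost without JMJD3 library 1, where the spread is that of the vector pair and the fold change hardly moved (log2 fold change -0.50, edgeR adjusted p = 0.0506). The FPKM of TDG showed less: it was 59.0, 48.2, 41.5 and 46.6, which still did not overlap, and with limma on log2(FPKM + 1) the difference was -0.27 and did not pass (adjusted p = 0.189). Its counts per FPKM moved opposite to those of DNMT1, from 97.7 and 104 in vector cells to 87.1 and 80.6 in JMJD3 cells, a log2 shift of -0.27 that 11% of genes matched or passed. So the fall of TDG rests on counts, and the difference was smaller on FPKM. TET2 and TDG moved in opposite directions. Reads of the processed copy TDGP1 were 2, 0, 3 and 6, and estimated counts can divide reads between such similar genes.

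IDH2, the mitochondrial dehydrogenase, fell from 321 and 349 CPM in vector cells to 222 and 213 CPM in JMJD3 cells. Both JMJD3 libraries were below both vector libraries, at means of 218 ± 6.19 against 335 ± 20.3 CPM (SD, n = 2), and the log2 fold change was -0.62 (standard error 0.08, adjusted p = 0.00262 by edgeR's quasi-likelihood test with Benjamini-Hochberg adjustment). It was called in all 15 alternatives, with values from -0.73 to -0.57. Its cytosolic relative IDH1 was at 50.1, 46.9, 49.7 and 51.0 CPM, with overlapping groups. The difference of IDH1 was 0.05 on the log2 scale (standard error 0.09, adjusted p = 0.666 by edgeR's quasi-likelihood test with Benjamini-Hochberg adjustment). It was 0.09 at most in the alternatives, and 0 with the length trend. In FPKM, IDH2 was therefore 8.10 and 9.60 times IDH1 in vector cells and 5.68 and 5.26 times in JMJD3 cells. The strand of the reads is not stated, so reads of IDH1 and of its antisense neighbor IDH1-AS1 (3, 12, 8 and 13 reads) cannot be told apart. Counts of RNA say nothing of mutations in either enzyme, which were not examined.

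**Figure D4:**
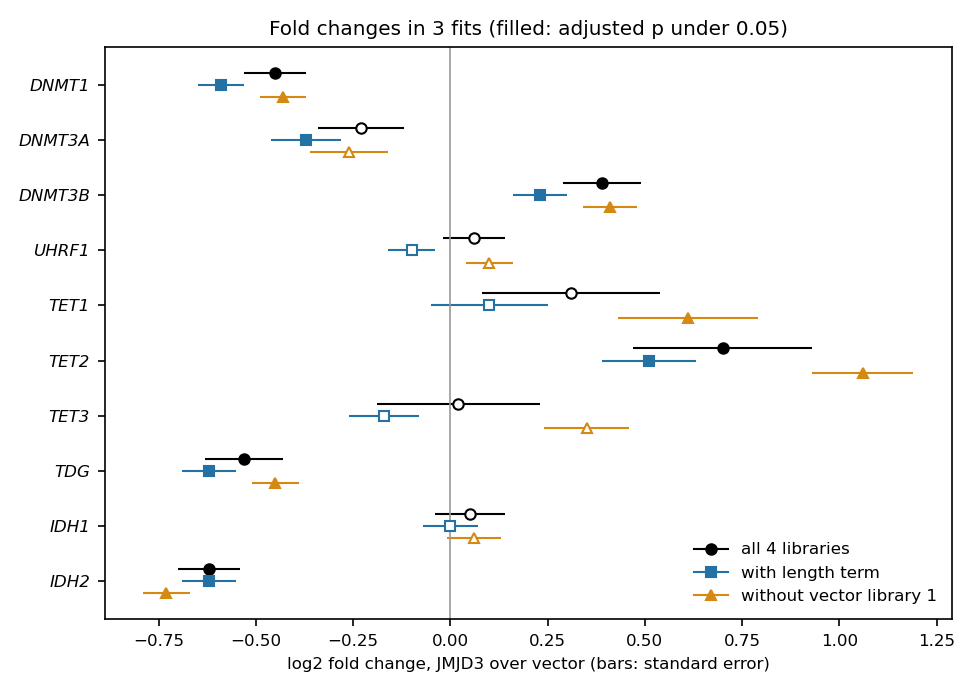
Log2 fold change, JMJD3 over vector, of each member with its standard error (horizontal axis), with all 4 libraries (circles), with a length trend for each library (squares) and without vector library 1 (triangles), filled at an adjusted p under 0.05. IDH2, TDG and DNMT1 lie below 0 and TET2 and DNMT3B above 0 in all 3 fits.

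The picture sets the fits side by side. The length trend lowered the value of every member but IDH2, which stayed at -0.62, and it put UHRF1 and TET3 below 0 without either being called. Leaving out vector library 1 did the opposite to the TET genes, and raised TET1 to 0.61, TET2 to 1.06 and TET3 to 0.35.

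The proteins around the members were read from 7 lists. Among 101 tested genes of these lists 11 were called higher and 46 lower, with a median log2 fold change of -0.26 against 0.04 over all tested genes, where 3292 were called higher and 2906 lower.

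Of 9 genes listed as readers of methylated CpG sites, a list that includes MBD3 although it does not bind them selectively, 2 rose, 2 fell and 5 did not pass, with a median of 0.18, and these shares are near the 21.6% and 19.1% of all tested genes. The genes that rose encode zinc finger readers: ZBTB4 was at 10.2, 8.45, 17.4 and 17.5 CPM (log2 fold change 0.90) and ZBTB33, also called Kaiso, at 27.2, 19.5, 40.2 and 42.3 CPM (0.82). MBD3, a subunit of the NuRD deacetylase complex, fell from 247 and 306 CPM to 164 and 161 CPM (log2 fold change -0.77, adjusted p = 0.00364 by edgeR's quasi-likelihood test with Benjamini-Hochberg adjustment). MBD2, which binds methylated CpG, was at 55.4 and 55.6 CPM against 42.9 and 44.5 CPM (log2 fold change -0.35), and its call was lost without JMJD3 library 1 (-0.32) and library 2 (-0.37), and on FPKM, where the difference was 0.05. The median of the list was 0.25 without vector library 1 and 0.09 without vector library 2.

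Among partners of the methyltransferases 1 of 15 tested genes was higher, 6 were lower and 8 did not pass, with a median of -0.21. Over all tested genes 21.6% were called higher and 19.1% lower. Limma called 0 higher and 4 lower on log2(FPKM + 1), and 0 and 0 on log2(FPKM + 0.1), both with a median of -0.18. The length trend gave 2 higher and 9 lower, with a median of -0.31. Over all 15246 tested genes limma called 1950 higher and 1919 lower on log2(FPKM + 1), and 1573 and 1165 on log2(FPKM + 0.1). The fit with the length trend called 3651 and 3797. CDCA7 and HELLS, which together form a nucleosome remodeler needed for methylation of repeats, diverged on counts. CDCA7 was at 181 and 150 CPM in vector cells and 213 and 207 CPM in JMJD3 cells (log2 fold change 0.34). Its call was lost without JMJD3 library 1 (0.32) or library 2 (0.37), and its value was 0.21 without vector library 2. CDCA7 also did not pass with limma on log2(FPKM + 1) (0.30, adjusted p = 0.121) or with no filter on low counts (0.34, edgeR adjusted p = 0.123). HELLS was at 66.8 and 61.5 CPM against 40.6 and 38.1 CPM (log2 fold change -0.71), but its FPKM showed -0.15 and did not pass (limma adjusted p = 0.5). TRIM28, the corepressor that zinc finger proteins bring to transposons, fell from 790 and 905 CPM to 547 and 534 CPM (log2 fold change -0.65). The median of these partners was -0.3 without vector library 1, and -0.18 and -0.23 without JMJD3 library 1 or 2.

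Among TET partners and base excision repair genes 3 of 15 tested were higher and 4 lower, with a median of -0.12. Over all tested genes 21.6% were called higher and 19.1% lower. The glycosylases NEIL1 and NEIL2, which can act after TDG, moved apart: NEIL1 fell from 11.9 and 9.52 CPM to 4.85 and 4.88 CPM (log2 fold change -1.14, adjusted p = 0.00290 by edgeR's quasi-likelihood test with Benjamini-Hochberg adjustment), while NEIL2 was at 2.34 and 3.40 CPM against 5.36 and 5.17 CPM (0.87). The call of NEIL2 was lost with limma on log2(FPKM + 1), at 0.52 (adjusted p = 0.0517). OGT, the sugar transferase that binds TET2 and TET3, was at 202 and 141 CPM against 236 and 266 CPM (log2 fold change 0.55). Like TET2 it depended on the libraries: 0.31 without vector library 2, and 0.46 with the call lost without JMJD3 library 2. With the length trend OGT was at 0.36, and its call was lost with no filter on low counts (0.55, edgeR adjusted p = 0.151). CXXC5, a zinc finger protein related to the DNA-binding part of TET enzymes, was at 64.6 and 71.3 CPM against 48.5 and 49.0 CPM (log2 fold change -0.48), a call lost without JMJD3 library 1 (-0.47) or library 2 (-0.48), and with limma on log2(FPKM + 1), where the difference was -0.30 (adjusted p = 0.101). With the length trend 5 genes of the list were higher and 7 lower, against 3651 and 3797 of all 15246 tested genes. The median of the list was -0.11 without vector library 1, -0.11 without JMJD3 library 1 and -0.12 without JMJD3 library 2.

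Genes of 2-oxoglutarate metabolism were lower with IDH2. Of 22 genes 17 fell, 1 rose and 4 did not pass, with a median of -0.42. Over all tested genes 19.1% were called lower and 21.6% higher. In both JMJD3 libraries 20 of the 22 were lower than in either vector library, against 35% of all tested genes. With limma 12 were called lower on log2(FPKM + 1) and 5 on log2(FPKM + 0.1), with medians of -0.4 and -0.41. Over all 15246 tested genes these settings called 1919 and 1165 lower. IDH3B, a subunit of the isocitrate dehydrogenase of the citric acid cycle, fell from 268 and 299 CPM to 171 and 161 CPM (log2 fold change -0.77, adjusted p = 0.00203 by edgeR's quasi-likelihood test with Benjamini-Hochberg adjustment). PSAT1, the transaminase of serine synthesis that yields 2-oxoglutarate, fell from 148 and 131 CPM to 76.3 and 76.9 CPM (log2 fold change -0.86, adjusted p = 0.00182 by the same edgeR test). The median of the list was -0.43 without JMJD3 library 1 and -0.41 without JMJD3 library 2, and had thus hardly moved. Mitochondrial transcripts made up 7.91 and 7.65% of counts in vector libraries and 5.73 and 5.86% in JMJD3 libraries, and the part of that difference in the fall of nuclear genes for mitochondrial enzymes was not tested.

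The cycle that feeds methyltransferases with S-adenosylmethionine had 2 of 15 tested genes higher and 4 lower, against 21.6% and 19.1% of all tested genes. Its median of 0.12 was 0 without vector library 2 and 0.01 with the length trend. MAT2A, which makes S-adenosylmethionine, rose from 524 and 431 CPM to 786 and 795 CPM (log2 fold change 0.73, adjusted p = 0.00334 by edgeR's quasi-likelihood test with Benjamini-Hochberg adjustment). AHCY, which clears the inhibitory product S-adenosylhomocysteine, fell from 550 and 606 CPM to 393 and 388 CPM (log2 fold change -0.56). MTHFD1L, a mitochondrial enzyme of folate metabolism, fell from 69.5 and 75.4 CPM to 35.5 and 35 CPM (log2 fold change -1.04). Without vector library 1 the median of the list was 0.19.

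Germline genes, which promoter methylation keeps silent in somatic cells, were mostly not detected in either group. Of 17 such genes 14 were too low to be tested, none above 0.274 CPM in any library, and 11 had 0 reads in all 4 libraries. Of the 3 tested, SOHLH2, a transcription factor of germ cells, was at 17.6 and 18 CPM in vector cells and at 24.5 and 24.8 CPM in JMJD3 cells (log2 fold change 0.47), a call lost without JMJD3 library 1 (0.48) or library 2 (0.47). By edgeR 0 of the 3 were lower, at an unadjusted p under 0.05 as well, and 0 by the DESeq2 Wald test and by limma. With no filter on low counts edgeR tested 6. Of these, 0 were lower after adjustment and 1 at an unadjusted p under 0.05. Methylation itself was not measured.

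Since DNMT1 and UHRF1 are transcribed most in S phase, genes of that phase were set beside them. Of 22 genes 13 fell, 1 rose and 8 did not pass, with a median of -0.31. Over all tested genes 19.1% were called lower and 21.6% higher. In both JMJD3 libraries 19 of the 22 were lower than in either vector library, against 35% of all tested genes. The log2 fold change of DNMT1, -0.45, lay below that median, whereas that of UHRF1, 0.06, lay among the few genes that were not lower, with 20 of 22 below 0. POLE, the leading strand polymerase, was at 333 and 317 CPM against 187 and 207 CPM (log2 fold change -0.72), and MCM7, a helicase subunit, at 1040 and 1150 CPM against 662 and 661 CPM (-0.73). CCNE2, a cyclin of S phase entry, rose from 17.9 and 13.6 CPM to 23.3 and 24.7 CPM (log2 fold change 0.61). That call was lost without JMJD3 library 2 (0.57) and with limma on log2(FPKM + 1) (0.53). CCNE1 of the same list was at 15.7 and 16.7 CPM against 13.9 and 12.8 CPM (log2 fold change -0.28) and did not pass. Without JMJD3 library 1 the list had 1 gene higher and 3 lower, and without JMJD3 library 2, 0 and 4, with medians of -0.34 and -0.30 that had hardly moved. Calls over all genes fell as well in these fits, from 2906 lower to 1368 and 1110. Without vector library 1 the median of the list was -0.38. The list had 5 genes lower with limma on log2(FPKM + 1) and 3 with limma on log2(FPKM + 0.1), against 1919 and 1165 over all genes. It had 9 lower with no filter on low counts and 8 with a replicate block, against 1776 and 2415 over all genes. The medians in the limma, filter and block settings ran from -0.33 to -0.3. Whether DNMT1 moved with the share of cells in S phase was not tested.

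The spread of points shows why a list is described here by its counts and median. The members ran from -0.62 for IDH2 to 0.70 for TET2, and the readers from -0.77 to 0.90.

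Thus the RNA for copying methylation (DNMT1) and for making 2-oxoglutarate in mitochondria (IDH2) was lower in JMJD3 cells, and was called so in all 15 alternatives. TDG was lower, and DNMT3B and TET2 were higher, in every setting as well, but their calls were lost in some. UHRF1, TET1, TET3 and IDH1 overlapped between the groups, and DNMT3A was lower without overlap but did not pass the test. No protein, enzyme activity, metabolite or methylated site was measured in these libraries.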

How the data were processed

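The authors deposited 1 table with counts, described here as estimated counts since the submitters' notes name RSEM, and FPKM for each gene and library. Their fold change, p-value, FDR and direction columns were not used. The submitters' notes name CASAVA 1.8, TopHat2 2.0.4, RSEM, edgeR and GRCh38, the series text BWA, Cufflinks and ANOVA, and the paper's methods STAR, hg19, HTSeq-count and DESeq2. The members and lists were chosen with earlier results of these data known.

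Deposited estimated counts were rounded, filtered with filterByExpr (15246 of 60662 genes kept), scaled with TMM and tested across all genes with edgeR 4.0.16 (glmQLFit, glmQLFTest, R 4.3.3), with Benjamini-Hochberg adjustment. CPM uses TMM-scaled totals. A standard error is the log2 fold change divided by the square root of F. Deposited totals were 39078443, 40768225, 35176388 and 34704909. The deposited counts turned out to be reads times 1 factor per library (1.143, 1.047, 0.9928 and 0.8287), since after division 95 to 95.4% of values up to 50 reads were whole to within 0.02. That gives 34190335, 38947098, 35431658 and 41876234 reads, differing from the unit planned for. The inverse factors over their geometric mean were 0.871, 0.952, 1 and 1.2. DESeq2 size factors of these reads, scaled likewise, were near them, at 0.867, 0.949, 1.01 and 1.21. The deposited counts had thus already been scaled between libraries, and their totals are not read depths. The fit was kept, and recovered reads were an alternative.

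Apart from CCNE1, genes named from the lists were those with the largest changes among called genes without overlap of the groups. There were up to 2 in each direction, so they were picked by their values. Results for 2 of these genes are not reported. Alternatives were the size factors and the Wald test of DESeq2 1.42.0, upper quartile scaling, and limma 3.58.1 on FPKM after adding 1 or 0.1 and taking log2. Further ones were other filters and thresholds, a replicate block, and each library left out. Deposited counts were also thinned to equal totals, which does not equalize reads. Recovered reads, the length trend (lowess per library as an offset) and a crossed block were chosen after seeing the data. The edgeR, DESeq2 and limma tests were checked on simulated counts.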

Additional observations from a re-analysis of the deposited data

How the results depend on the processing

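DNMT1 and IDH2 were called lower, and KDM6B higher, in all 15 alternatives, from -0.68 to -0.41, from -0.73 to -0.57 and from 1.19 to 1.58 on the log2 scale. TDG was called in 12, and DNMT3B and TET2 in 9 each, the latter from 0.36 to 1.06. Members called higher, 2 in the report, were 0 with limma on either FPKM scale, with no filter, at 2-fold and at an adjusted p under 0.01. By unadjusted p under 0.05 there were 2 with limma on log2(FPKM + 1), 1 with limma on log2(FPKM + 0.1) and 2 with no filter. They were 1 with thinning, and 0 to 3 with a library left out. Members called lower, 3 in the report, were 0 at 2-fold and 2 to 3 with a library left out. Genes of the lists called higher, 11 in the report, were 7 with limma on log2(FPKM + 1), 2 with limma on log2(FPKM + 0.1), 4 with no filter, 0 at 2-fold, and 4 to 21 with a library left out. Those called lower, 46 in the report, were 28 and 12 with the limma settings, 2 at 2-fold, and 16 to 59 with a library left out. The cause was not tested.

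With a block for the replicate number 1 member was called higher and 3 lower, and in the lists 10 and 37. With crossed numbers these counts were 2, 3, 16 and 54. The deviations of replicate 1 from its group mean had a correlation of -0.162 between the groups.

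Neither UHRF1 nor TET3 was called in any setting, and their direction turned. TET3, at 0.02, was -0.01 with DESeq2 size factors, -0.01 with the DESeq2 Wald test, -0.17 with the length trend, and -0.28 to 0.35 with a library left out. UHRF1, at 0.06, was -0.10 with the length trend and -0.03 to 0.10 with a library left out. The cause was not tested.

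Over all genes, 3292 higher and 2906 lower became 1950 and 1919 with limma on log2(FPKM + 1), 1573 and 1165 with limma on log2(FPKM + 0.1), and 1893 and 1776 with no filter, where 27095 genes were tested. With a library left out the counts ran from 1890 to 4248 higher and from 1110 to 4212 lower. With recovered reads they were 3304 and 2915.

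There were 2 libraries a group, with no separate cultures stated. As 1 vector library was on a lane of its own, lane and library cannot be told apart within vector cells. In the fit within lane 17, without vector library 1, DNMT1 (-0.43), TDG (-0.45), IDH2 (-0.73), TET2 (1.06) and DNMT3B (0.41) kept their direction. Fits with a library left out take their spread from the complete group alone, so their calls are not a test of lane. TET1 had the fewest reads of the members (98 to 205), and most listed germline genes were too low to be tested. The standard error of TET1, 0.23, was near the 0.21 of TET3, which had 1667 to 2903 reads. With the length trend these were 0.15 and 0.09. The part of depth in them was not tested. Counts per gene do not separate transcripts, so the shifts in assigned length of DNMT1 and TDG cannot be traced to one, and length was itself read from the deposited values.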
